A study of Mus musculus with 6 samples.

Results

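The genes described here are the mouse MHC genes and the genes that supply and load their peptides, measured in intestinal epithelial cell preparations with and without the Cre recombinase that deletes Pggt1b. They were every gene whose single symbol in the platform annotation starts with H2-, plus Cd74, Ciita, Nlrc5, B2m, Tap1, Tap2, Tapbp, Psmb8, Psmb9, Psmb10, Psme1, Psme2 and Cd1d1. The array held 35 of them among 18193 genes, 23 with an H2- symbol and 12 of the 13 others. Psme2 was read only by a probe set it shares with Psme2b. By role, 11 were class II genes, 16 were class I genes, 7 supply and load peptides, and 1, H2-Ke6, lies in the MHC without a part in antigen presentation.

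The 3 deficient mice carried floxed Pggt-Ibeta (Pggt1b, the beta subunit of GGTase-I, an enzyme that attaches a lipid to small GTPases) and were VillincreERT2 positive. The 3 control mice carried the same floxed gene and were VillincreERT2 negative. Both groups were of a mixed 129/SV and C57BL/6 background, and both received 1 mg of tamoxifen per day on 3 days, with cells taken on day 6 counted from the first dose. VillincreERT2 is a tamoxifen-inducible Cre driven by the Villin promoter in the gut epithelium, and no control carried it, so effects of Cre and of the deletion cannot be told apart. Each mouse gave 1 array. The sources used here name no age, sex, gut segment, litter, scan batch or MHC haplotype for any mouse.

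MHC class I molecules pair a heavy chain with B2m and display peptides that the proteasome makes and the Tap transporter carries into the endoplasmic reticulum for loading. CD8 T cells and natural killer cells read them at the cell surface. MHC class II molecules pair an alpha and a beta chain, are guarded by the invariant chain Cd74, exchange peptides with the help of H2-DM in endosomes, and are read by CD4 T cells. Professional antigen-presenting cells carry class II constitutively, and the small intestinal epithelium carries it too and raises it with interferon gamma. Ciita switches on class II genes through the X and Y boxes of their promoters, and Nlrc5 does the same for class I genes.

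The promoters of 3 class II genes are shown first because their X and Y boxes are the elements through which Ciita works. The sequences are RefSeq windows on GRCm38.p6, each 120 bases on the strand of its gene. Capitals mark GCAAC, part of the X box, and ATTGG, the Y box, which is CCAAT read on the other strand.
H2-Aa (chr17:34287824-34287943, minus strand): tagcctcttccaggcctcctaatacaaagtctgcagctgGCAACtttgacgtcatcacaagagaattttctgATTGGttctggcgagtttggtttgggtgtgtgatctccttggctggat
H2-Eb1 (chr17:34305747-34305866, plus strand): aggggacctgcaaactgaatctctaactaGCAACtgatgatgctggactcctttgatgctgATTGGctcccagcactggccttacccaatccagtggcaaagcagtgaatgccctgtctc
H2-Ob (chr17:34238785-34238904, plus strand): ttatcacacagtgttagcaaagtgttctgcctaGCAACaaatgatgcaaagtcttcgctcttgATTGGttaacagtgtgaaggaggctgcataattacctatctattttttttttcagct
In H2-Aa the 2 elements lie 28 bases apart, in H2-Eb1 27 and in H2-Ob 25. The motif GCAAC, then 25 to 28 bases, then ATTGG, searched on both strands, occurred in 66 of 32851 promoter windows, or 0.201%, where a window runs from 250 bases before a start to 50 after it. That spacing was chosen after these sequences were seen. Of the 23 members with a window, it occurred in 5 of 7 class II genes (H2-Aa, H2-Eb1, H2-Eb2, H2-Oa and H2-Ob), in 0 of 9 class I genes and in 0 of 6 supply and loading genes. The windows of H2-DMa and H2-DMb2 did not hold these letters at that spacing. GCAAC alone occurred in 35.2% of all windows and CCAAT alone in 37.4%.

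The class I promoters below are shown to set H2-K1 and H2-D1, whose levels differed little between the groups, beside H2-Q10, whose mean was higher in deficient arrays. Capitals mark GGGATTCCC, the core of the class I enhancer A that binds NF-kappa B factors, and ATTGG. The H2-Q10 window has no capitals because it held neither.
H2-K1 (chr17:34000358-34000477, minus strand): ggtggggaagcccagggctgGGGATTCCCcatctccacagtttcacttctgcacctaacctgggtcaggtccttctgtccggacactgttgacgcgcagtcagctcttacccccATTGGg
H2-D1 (chr17:35262904-35263023, plus strand): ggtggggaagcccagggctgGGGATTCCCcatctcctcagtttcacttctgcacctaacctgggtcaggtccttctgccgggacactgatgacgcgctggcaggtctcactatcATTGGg
H2-Q10 (chr17:35469909-35470028, plus strand): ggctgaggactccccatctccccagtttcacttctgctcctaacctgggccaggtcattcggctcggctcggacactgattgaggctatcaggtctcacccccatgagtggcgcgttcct
The H2-K1 and H2-D1 windows were identical at 109 of 120 bases, or 90.8%. Among all promoter windows 0.353% held GGGATTCCC on either strand. Among the members only H2-K1 and H2-D1 did, which is 2 of 9 class I genes. The interferon-response motif GAAA, any 2 bases, then GAAA, on either strand, occurred in 3.44% of all windows and, among the members, in B2m and Psme1. Psmb9 and Tap1 are read in opposite directions from a shared stretch of 225 bases (chr17:34187331-34187555, plus strand), shown because their products act in succession, a proteasome subunit and then a transporter subunit. Capitals mark CCAAT and GCAAC.
Psmb9 and Tap1: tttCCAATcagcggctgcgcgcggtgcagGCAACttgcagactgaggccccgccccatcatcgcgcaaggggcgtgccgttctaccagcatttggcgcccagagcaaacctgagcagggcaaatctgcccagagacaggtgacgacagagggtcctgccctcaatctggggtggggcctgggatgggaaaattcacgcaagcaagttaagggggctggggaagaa
These matches describe letters in the RefSeq sequence, and no binding was measured in these mice.

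All values below are deposited log2 values of 1 probe set per gene, and changes are the deficient mean minus the control mean. Pggt1b, the targeted gene, was at 9.75, 8.88 and 8.83 in deficient mice, against 9.30, 9.55 and 9.33 in control mice. The groups overlapped, with a change of -0.24 ± 0.27 (limma adjusted p = 0.678), so its RNA level did not check the labels, and the place of its probe sets relative to the floxed exons was not analysed here. Arrays correlated at 0.953 to 0.980 within groups and at 0.903 to 0.969 between them, and array medians lay between 3.26 and 3.33.

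Genes above 5 on at least 3 of the 6 arrays were tested with limma, which covered 25 of the 35 members. The other 10 were never above 5. At an adjusted p under 0.05, 0 of the 25 tested members were called, while 2.09% of all 8893 tested genes were. In a limma fit with no filter, which covers all 35 members, 10 had an unadjusted p under 0.05 with a lower mean in deficient arrays and 0 with a higher one, against 7.33% and 3.51% of all genes on the array. Most members had the same sign. In 30 of 35 the deficient mean was lower, compared with 54.6% of all genes on the array. Among the 24 members with a mean over 5 it was lower in 21, compared with 54.3% of genes at that level. All 3 deficient arrays lay below all 3 control arrays in 16 of 35 members (11.4% of all genes) and above them in 0 (6.23%). By role, 8 of 11 class II genes, 3 of 16 class I genes, 4 of 7 supply and loading genes and H2-Ke6 were lower without overlap. Of these class II genes, Ciita, H2-DMb2, H2-Oa and H2-Ob were never above 5. The others, H2-Aa, H2-Ab1, H2-Eb1 and H2-DMa, had a mean over 5. The counts without overlap rest on the probe set chosen for each gene. Some other probe sets of H2-Aa, H2-Ab1 and H2-DMa overlapped between the groups. The median change was -0.92 for class II genes, -0.26 for class I genes and -0.54 for supply and loading genes, and -0.01 for all genes on the array. The class II median was the value of H2-DMb2, a gene under the filter level. Over members with a mean over 5 the medians were -1.51, -0.55 and -0.54 in the same order of classes, and -0.04 for all genes at that level. The class II median was -0.44 with all probe sets of a gene averaged, -0.42 without probe sets that can match several transcripts, and 0.00 with values under 5 raised to 5. The class I median was -0.15 when control replicate 3 was left out and -0.14 when deficient replicate 1 was. The difference between the classes was not tested. In whole preparations, fewer cells of a type and less RNA per cell cannot be told apart.

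**Figure D1:**
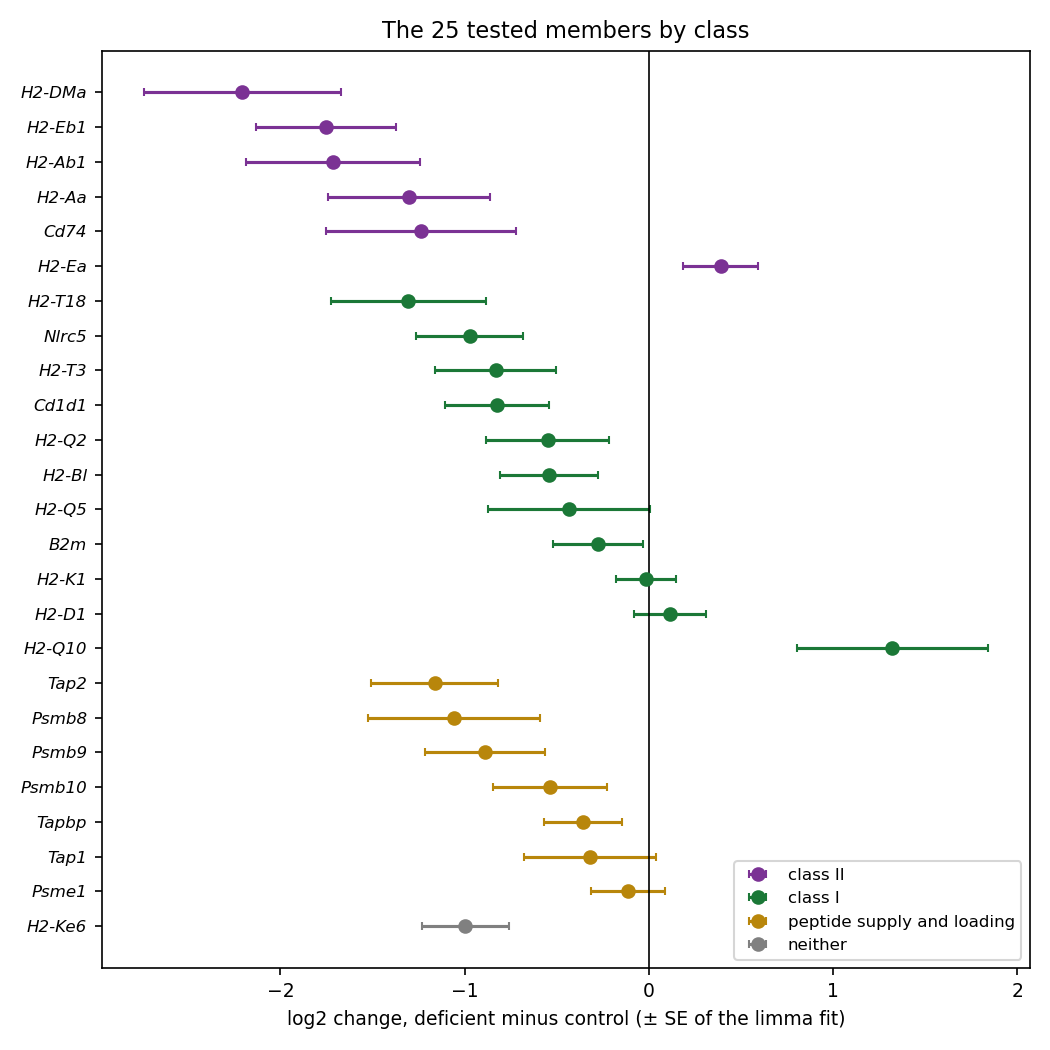
Log2 change (deficient minus control, horizontal axis) of the 25 tested members with the standard error of the limma fit, ordered by class and by change. H2-DMa, H2-Eb1 and H2-Ab1 have the most negative values, H2-K1 and H2-D1 lie at 0 within their errors, and H2-Q10 has the highest value at 1.32.

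Of the class II alpha and beta chain genes, H2-Ab1, H2-Aa and H2-Eb1 were lower in every deficient mouse than in any control mouse. This was so by the probe set chosen for each gene. The log2 changes were between -1.75 and -1.30, and none passed the adjusted threshold. H2-Ab1, the beta chain of the I-A molecule, was at 8.82, 9.07 and 9.23 in deficient mice, against 10.69, 9.78 and 11.79 in control mice. The groups did not overlap, and the controls were spread more widely, with means of 9.04 ± 0.21 in deficient mice and 10.76 ± 1.00 in control mice (SD, n = 3 each). The log2 change was -1.72 ± 0.47 (SE; limma adjusted p = 0.162), and the 3 probe sets of the gene gave -1.72 to -1.55. H2-Aa, the alpha chain of the same molecule, was at 11.13, 10.95 and 10.21 in deficient mice, against 11.92, 11.34 and 12.94 in control mice. Again no deficient array reached a control array. The change was -1.30 ± 0.44 (limma adjusted p = 0.223), and all 4 probe sets lay between -1.66 and -1.30. In the probe set with a change of -1.54, deficient replicate 2, at 7.732, just passed control replicate 2, at 7.731. H2-Eb1, the beta chain of the I-E molecule, was at 7.99, 8.27 and 7.86 in deficient mice, against 9.88, 8.98 and 10.53 in control mice, without overlap. It was 3.37-fold lower, a log2 change of -1.75 ± 0.38, with the smallest adjusted p among the tested members (limma adjusted p = 0.0873). With array weights in the limma fit, 3 of the 25 tested members were called, H2-Ab1, H2-Eb1 and H2-DMa, compared with 3.29% of all tested genes.

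H2-Ea, which would encode the alpha chain that partners H2-Eb1, did not share this pattern. It was at 6.60, 6.30 and 6.37 in deficient mice, against 5.77, 5.98 and 6.35 in control mice. The groups overlapped and the change was +0.39 ± 0.20 (limma adjusted p = 0.369), or +0.17 with array weights. C57BL/6 and 129 strains carry an H2-Ea gene that is not transcribed, so what this probe set reads in these mice cannot be told from the array. H2-Eb2, a second I-E beta chain gene, lay between 2.88 and 2.97 on all arrays.

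The helpers of class II loading included the member with the most negative change. H2-DMa, a chain of the H2-DM catalyst of peptide exchange, was at 4.62, 5.50 and 5.59 in deficient mice, against 7.53, 6.35 and 8.44 in control mice. The groups did not overlap, and deficient replicate 1 lay below the level of 5 used as a filter. The change was -2.21 ± 0.53, or 4.61-fold lower (limma adjusted p = 0.122). It was -1.28 when both probe sets of the gene were averaged. The other probe set, under 5 on all arrays, gave -0.35 with overlap. Cd74, the invariant chain, was at 7.30, 8.15 and 6.98 in deficient mice, against 8.54, 7.86 and 9.74 in control mice. Deficient replicate 2 was above control replicate 2, so the groups overlapped, and the change was -1.24 ± 0.52 (limma adjusted p = 0.291). H2-DMb2, a beta chain of H2-DM, was at 3.05, 3.04 and 3.14 in deficient mice, against 4.06, 3.86 and 4.08 in control mice. It was never above 5 and was not tested with the others. In the fit without a filter its change of -0.92 had a limma adjusted p of 0.0256, the only member called there. A probe set shared by H2-DMb1 and H2-DMb2 read 4.41, 3.41 and 3.93 in deficient mice, against 5.70, 4.03 and 7.57 in control mice, and overlapped between the groups. Another read 3.20, 3.07 and 3.11 in deficient mice, against 4.74, 3.62 and 6.03 in control mice, without overlap. The other probe sets of H2-DMb2 alone gave -0.05 and -0.23, so the size of its change depended on the probe set.

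Ciita and the H2-O chains, which regulate class II, were under the filter level on all arrays. Ciita lay between 2.41 and 2.44 in deficient mice and between 2.47 and 2.77 in control mice, a change of -0.15. H2-Oa and H2-Ob, the chains of the H2-O inhibitor of H2-DM, were at 2.02 to 2.10 and 2.73 to 2.76 in deficient mice. In control replicate 1 they stood at 3.17 and 3.76, and in the other control mice at 2.15 to 2.19 and 2.81 to 2.86. Their changes of -0.44 and -0.39 therefore rest on that array, and without it were -0.11 and -0.09. Among the B cell and plasma cell genes, Ms4a1 (CD20), at 5.48, Cd79b, at 3.26, and Cd22, at 3.41, were also highest in that array. Blnk and Sdc1 had their highest control value there. Jchain, Pax5 and Blk, at 9.58, 2.30 and 2.36, had their lowest control value there. Mzb1 was highest in control replicate 3, at 2.88, and Cd79a lay between 1.94 and 1.99 on all arrays. Cd79b, Cd22, Pax5, Blk, Mzb1 and Cd79a were never above 5. This comparison was chosen after the values were seen, and the part of these genes in the H2-O values was not tested.

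**Figure D2:**
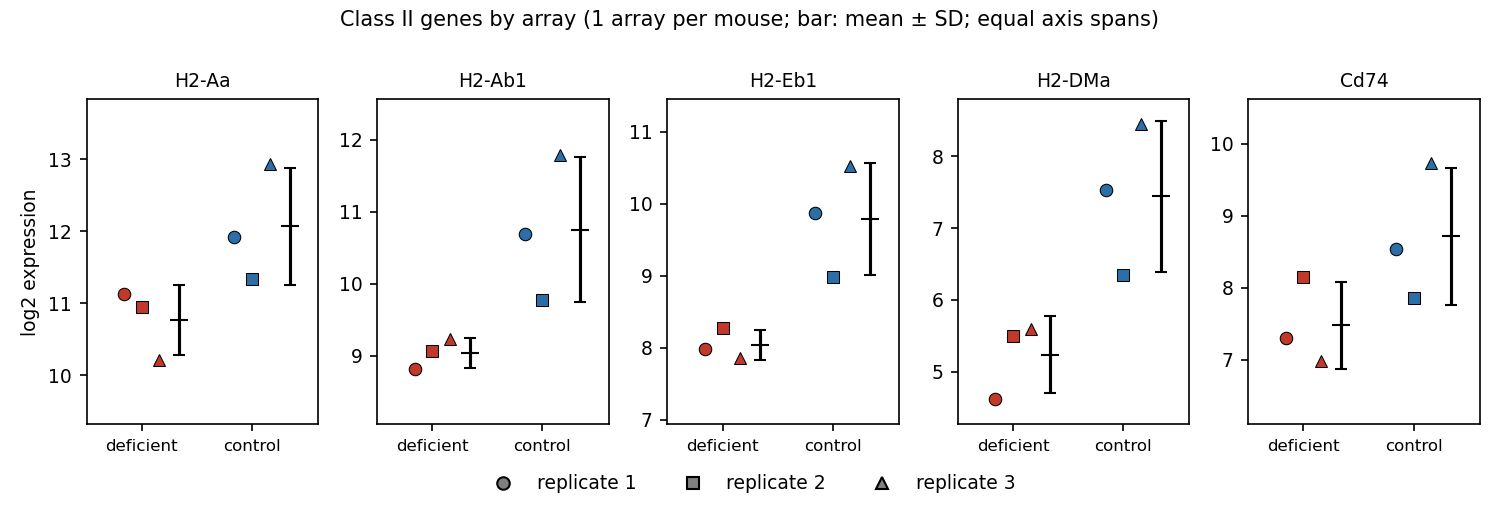
Log2 expression (vertical axis, equal spans) of class II genes by array in deficient (red, left) and control (blue, right) mice, with bars for the mean ± SD of 3 mice. In H2-Aa, H2-Ab1, H2-Eb1 and H2-DMa every deficient array is below every control array, and control replicate 3 is the highest of its group.

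The control mice differed among themselves in class II in a repeated order. In 5 of the 6 class II genes with a mean over 5, control replicate 3 was highest, then replicate 1, then replicate 2, and the exception was H2-Ea. The same order occurred in 2 of 10 class I genes and 2 of 7 supply and loading genes at that level. Averaged over the 6 class II genes and set against the control mean of each gene, the deficient arrays lay at -1.39, -1.09 and -1.43 and the control arrays at -0.08, -0.75 and 0.83. Without control replicate 3 the changes were less negative, at -0.87 for H2-Aa, -1.20 for H2-Ab1, -1.39 for H2-Eb1, -1.71 for H2-DMa and -0.72 for Cd74. Without control replicate 2 they were more negative, at -1.67, -2.20, -2.16, -2.75 and -1.67 in the same order of genes, and H2-Eb1 (limma adjusted p = 0.0211) and H2-DMa (limma adjusted p = 0.0410) were then called. Of 6 genes marking the ileum 5 were tested and 0 were called, with the smallest p for Slc51a at -0.55 and Fgf15 at +1.94 (limma adjusted p of 0.475 and 0.547). Averaged in the same way, they lay at 0.85, 0.90 and 0.04 in deficient arrays and at 0.73, -1.61 and 0.88 in control arrays. All 6 genes marking the proximal small intestine were tested and 0 were called, with the smallest p for Cybrd1 at +3.21 and Lct at -0.94 (limma adjusted p of 0.170 and 0.273). They had means of 0.60, 0.19 and 0.59 in deficient arrays and -0.46, 0.70 and -0.25 in control arrays. The part of gut segment in the class II values was not tested.

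The classical class I heavy chains were measured at nearly the same level in both groups. H2-K1 was at 13.72, 13.77 and 13.61 in deficient mice, against 13.56, 13.69 and 13.89 in control mice. The arrays were interleaved, and the change was -0.02 ± 0.16 (limma adjusted p = 0.968), with its 4 probe sets between -0.10 and 0.06. H2-D1 was at 13.68, 13.88 and 13.77 in deficient mice, against 13.64, 13.37 and 13.96 in control mice, a change of +0.11 ± 0.20 (limma adjusted p = 0.787). Its 5 probe sets with a mean over 5 ran between -0.37 and 0.11, so its sign depended on the probe set. The value of -0.37 came from the only one of them not of the type that can match several transcripts. All 4 H2-K1 probe sets were of that type. B2m, the light chain of all these molecules, was at 13.83, 14.55 and 14.57 in deficient mice, against 14.45, 14.55 and 14.78 in control mice. Deficient replicate 1 alone was low, and the change of -0.28 ± 0.24 (limma adjusted p = 0.577) was -0.03 without it. The other B2m probe set gave a change of 0.06, so the sign depended on the probe set. Class I genes are near copies of each other, and probe sets can read relatives, so values within the family are uncertain as to which copy they measure.

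Among the non-classical class I genes the means of H2-T3 and H2-T18 were lower in deficient mice and that of H2-Q10 was higher, and none passed the adjusted threshold. H2-T3, the thymus leukemia antigen of the gut epithelium and a ligand of CD8 alpha homodimers, was at 10.68, 11.07 and 11.90 in deficient mice, against 11.88, 12.34 and 11.91 in control mice. Deficient replicate 3 lay within the control range, and the change was -0.83 ± 0.33 (limma adjusted p = 0.276). H2-T18, a close relative, was at 6.56, 7.70 and 8.26 in deficient mice, against 8.63, 9.11 and 8.70 in control mice. The groups did not overlap, the change was -1.31 ± 0.42 (limma adjusted p = 0.206), and it was -0.83 without deficient replicate 1. A probe set shared by both genes gave -0.92, and -0.59 without deficient replicate 1. H2-Q10, which encodes a secreted class I molecule made mainly by the liver, was at 8.96, 8.87 and 7.59 in deficient mice, against 6.99, 6.40 and 8.06 in control mice. Control replicate 3 lay above deficient replicate 3, so the groups overlapped, and the change was +1.32 ± 0.52 (limma adjusted p = 0.274). It was +0.67 with array weights in the limma fit.

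H2-Q2, a heavy chain gene of the Q region, was at 13.29, 14.10 and 14.54 in deficient mice, against 14.25, 14.81 and 14.53 in control mice. H2-Bl, a class I pseudogene, was at 13.77, 14.45 and 14.62 in deficient mice, against 14.61, 15.07 and 14.78 in control mice. Both overlapped, with changes of -0.55 ± 0.33 and -0.54 ± 0.26 (limma adjusted p of 0.427 and 0.345), and without deficient replicate 1 the changes were -0.21 and -0.28. H2-Q5, also a pseudogene, was at 5.12, 4.08 and 4.19 in deficient mice, against 5.26, 4.02 and 5.41 in control mice. The groups overlapped, with a change of -0.43 ± 0.44 (limma adjusted p = 0.635). Without control replicate 3 the change was -0.18, and without control replicate 2 -0.87. Cd1d1, which displays lipids to natural killer T cells, was at 5.43, 4.51 and 4.79 in deficient mice, against 6.08, 5.55 and 5.57 in control mice, without overlap. Its change was -0.82 ± 0.28 (limma adjusted p = 0.229), with 1 of 3 deficient arrays above 5. H2-M3, which binds formylated peptides, lay between 3.87 and 4.49 on all arrays, and H2-M9, H2-M10.1, H2-T24 and H2-D4 were lower still, with changes between -0.14 and 0.00.

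Nlrc5, the class I transactivator, was lower in each deficient mouse. It was at 5.63, 5.58 and 6.56 in deficient mice, against 7.10, 6.80 and 6.78 in control mice. The groups were separated by a small gap, with deficient replicate 3 closest to the controls. The change was -0.97 ± 0.29 (limma adjusted p = 0.186), and without deficient replicate 3 it was -1.29 with a limma adjusted p of 0.0337.

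Several class I genes were read only by probe sets that several genes share, which the rule on single symbols left out. Of 16 shared probe sets with an H2- symbol or Psme2, 10 had a mean over 5. All 10 had a lower mean in deficient arrays, and 3 did so without overlap, against 49.6% and 13.5% of all probe sets with a mean over 5. These 10 are not 10 further class I genes. Probe sets with the members H2-K1 and H2-D1, H2-T3 and H2-T18, and H2-Bl are among them, as is that of Psme2. H2-T23, and H2-Q6 with H2-Q8, are read by more than 1 of them. When each probe set was tested on its own, 1.44% of 16281 were called. The probe set of H2-Q9 and H2-Q7, the genes of the Qa-2 antigen, was among them. It was at 9.64, 9.11 and 9.46 in deficient mice, against 11.02, 10.66 and 10.58 in control mice, and it was singled out after its values were seen. The groups did not overlap, with means of 9.40 ± 0.27 in deficient mice and 10.75 ± 0.23 in control mice (SD, n = 3 each), or 2.55-fold lower in deficient mice (log2 change -1.35 ± 0.21, limma adjusted p = 0.0335). The call was lost without any 1 of the 6 arrays, with adjusted p between 0.0562 and 0.137, while the change stayed between -1.47 and -1.20. The probe set of H2-T9, H2-T22 and H2-T10, of which H2-T10 and H2-T22 are ligands of some gamma delta T cells, was at 9.54, 9.65 and 9.98 in deficient mice, against 10.29, 10.38 and 10.41 in control mice. It did not overlap, and its change was -0.64 ± 0.18 (limma adjusted p = 0.190). The probe set of H2-Q6 and H2-Q8 gave -0.87 ± 0.26 without overlap (limma adjusted p = 0.204). For H2-T23 (Qa-1, the ligand of the CD94 receptor on lymphocytes), which shares its probe sets with a pseudogene, the changes were -0.38 and -0.80 with overlap, and both were -0.23 without deficient replicate 1.

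**Figure D3:**
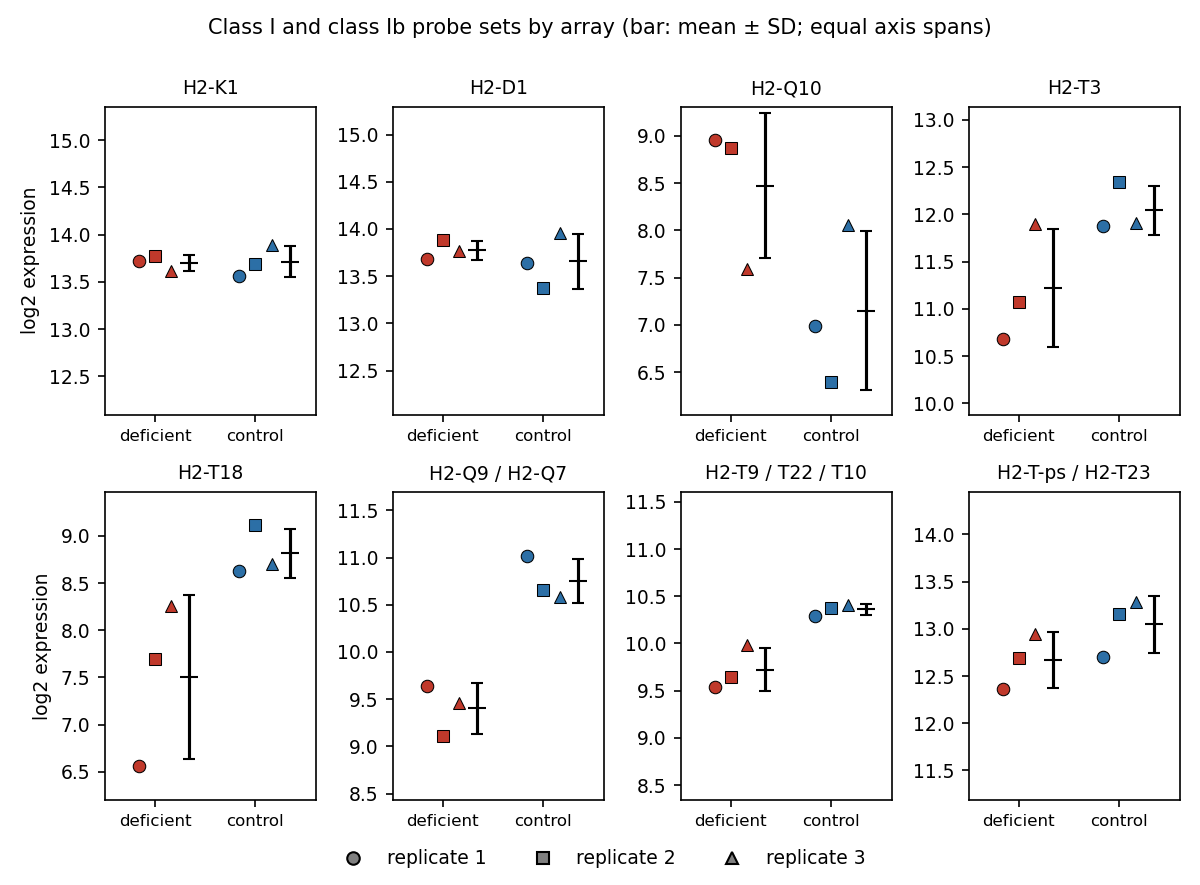
Log2 expression (vertical axis, equal spans) of class I genes and shared class I probe sets by array in deficient (red, left) and control (blue, right) mice, with bars for the mean ± SD of 3 mice. H2-K1 and H2-D1 are interleaved, the probe set of H2-Q9 and H2-Q7 averages 9.40 in deficient and 10.75 in control mice, and the deficient mean is the higher one in H2-Q10 and, by 0.11, in H2-D1.

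All 7 genes of peptide supply and loading had a lower deficient mean, and 4 of them did not overlap. The immunoproteasome replaces the 3 catalytic subunits of the standard proteasome. Psmb8 was at 8.91, 10.41 and 10.76 in deficient mice, against 10.82, 11.06 and 11.37 in control mice. Psmb9 was at 8.14, 9.02 and 9.36 in deficient mice, against 9.54, 9.66 and 9.98 in control mice. In both, deficient replicate 1 was far below the others while the remaining deficient arrays lay just under the controls. The changes were -1.06 ± 0.47 and -0.89 ± 0.33 (limma adjusted p of 0.312 and 0.248), and without deficient replicate 1 they were -0.50 and -0.54. Psmb10, the third of these subunits, was at 10.65, 11.64 and 11.78 in deficient mice, against 11.78, 12.02 and 11.86 in control mice. The highest deficient and lowest control array were equal to 2 decimals. The change of -0.54 ± 0.31 (limma adjusted p = 0.408) was -0.18 without deficient replicate 1.

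The transporter subunits differed in how far apart the groups lay. Tap2 was at 7.07, 7.66 and 8.25 in deficient mice, against 8.36, 8.99 and 9.11 in control mice, without overlap. Its change was -1.16 ± 0.34 (limma adjusted p = 0.184). Tap1 was at 7.82, 8.76 and 8.93 in deficient mice, against 8.64, 8.50 and 9.34 in control mice. Those values overlapped, with a change of -0.32 ± 0.36 (limma adjusted p = 0.668), and without deficient replicate 1 it was 0.02. Whether Tap1 and Tap2 differ in their change was not tested. Tapbp (tapasin), which holds class I at the transporter, was at 11.45, 11.74 and 12.02 in deficient mice, against 11.83, 12.19 and 12.26 in control mice, a change of -0.36 ± 0.21 with overlap, and -0.21 without deficient replicate 1. Psme1, a subunit of a proteasome activator, was at 11.81, 12.46 and 12.18 in deficient mice, against 12.28, 12.22 and 12.29 in control mice, a change of -0.11 ± 0.20. The shared probe set of Psme2b and Psme2, the partner subunit, gave -0.29 with overlap, and -0.0051 without deficient replicate 1.

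**Figure D4:**
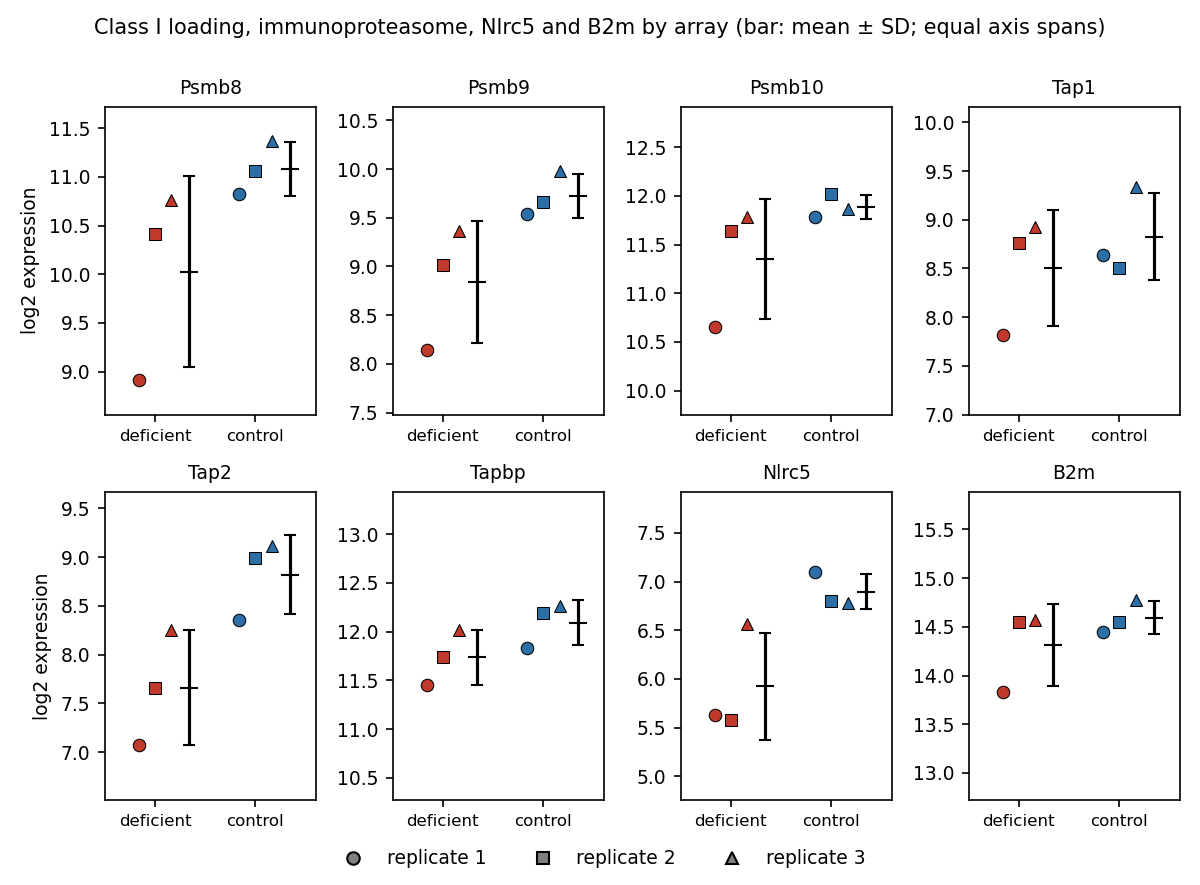
Log2 expression (vertical axis, equal spans) of supply and loading genes, Nlrc5 and B2m by array in deficient (red, left) and control (blue, right) mice, with bars for the mean ± SD of 3 mice. Deficient replicate 1 is the lowest array in every panel but that of Nlrc5, where replicate 2 is lowest at 5.58.

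Deficient replicate 1 was the lowest of the 6 arrays in all 7 supply and loading genes, in 5 of 10 class I genes with a mean over 5 and in 2 of 6 class II genes. The mean of the supply and loading genes, relative to the control mean of each gene, was -1.27 in that array, -0.43 and -0.20 in the other deficient arrays, and -0.21, -0.01 and 0.21 in the control arrays. For class I genes with a mean over 5 the same measure was -0.64, -0.35 and -0.17 in deficient arrays and -0.08, -0.03 and 0.10 in control arrays. The class II genes did not follow that order among the deficient mice, since their lowest deficient array was replicate 1 in 2 genes, replicate 2 in 1 and replicate 3 in 3.

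H2-Ke6, a hydroxysteroid dehydrogenase gene named for its place in the MHC, was at 7.90, 7.56 and 8.33 in deficient mice, against 9.06, 9.01 and 8.71 in control mice. The groups did not overlap, and the change was -0.995 ± 0.24 (limma adjusted p = 0.118).

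Genes of the same pathways outside the members had median changes nearer 0. None was called, and 0 of the 25 tested members were called either. Of 17 genes of class II regulation and endosomal processing, 14 were tested and 0 were called, with a median change of -0.13. The deficient mean was lower in 13 of the 17, compared with 54.6% of all genes on the array. In 7 of the 17 it was lower without overlap, compared with 11.4%. In this list Ctsd, a lysosomal protease, changed by -0.66 (limma adjusted p = 0.127), and Lgmn, another, by +1.24 (limma adjusted p = 0.202). Of 15 genes of class I peptide supply and loading, all 15 were tested and 0 were called, with a median of 0.14. The deficient mean was lower in 5 of them. Without overlap, 1 was lower and 4 were higher, compared with 11.4% and 6.23% of all genes on the array. Psme3, which encodes another proteasome activator, changed by +0.74 (limma adjusted p = 0.122), and Tapbpl, a tapasin relative, by -0.47 (limma adjusted p = 0.293). Of 8 MHC-like molecules 6 were on the array and only Fcgrt, the neonatal Fc receptor, was tested, at +0.27. Of 16 interferon gamma genes, 15 were on the array, 12 were tested and 0 were called, with a median of -0.22. The deficient mean was lower in 11 of the 15, and 1 was lower without overlap. The 2 with the smallest p were Iigp1 at -0.75 and Gbp2 at -0.83 (limma adjusted p of 0.328 for each), both interferon-induced GTPases. Ifng itself lay between 2.70 and 2.90 in deficient mice and between 2.97 and 3.09 in control mice, under the filter level. The mean of the interferon gamma genes, relative to control, was -0.32, -0.35 and -0.13 in deficient arrays and 0.01, -0.27 and 0.26 in control arrays, and its part in the class I and class II values was not tested.

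Of 9 genes for receptors that bind MHC molecules 3 were tested. All 3 were called lower in deficient mice, while 2.09% of all tested genes were called. Cd160 was above 5 on 1 deficient array and Cd8a on 2, so both passed the filter through the control arrays. Klrd1 (CD94, which reads Qa-1) was at 5.83, 5.90 and 6.47 in deficient mice, against 9.86, 9.0 and 8.85 in control mice, a change of -3.17 ± 0.32 (limma adjusted p = 0.00379). Cd8a, which binds class I and H2-T3, was at 4.87, 5.30 and 6.49 in deficient mice, against 8.54, 8.43 and 8.13 in control mice, a change of -2.81 ± 0.41 (limma adjusted p = 0.0176). Cd160, a receptor of class I on intraepithelial lymphocytes, was at 3.87, 3.41 and 5.34 in deficient mice, against 7.54, 8.36 and 8.22 in control mice (change -3.83, limma adjusted p = 0.0120). No deficient array reached a control array in any of the 3. The other 6, among them Cd4 and Klrk1, were never above 5.

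Markers of cells other than epithelium were measured beside these values. Of 18 T cell and intraepithelial lymphocyte markers 17 were on the array. While 2.09% of all tested genes were called, 11 of the 13 tested markers were called lower. These were the antigen receptor genes Cd3d and Cd3g, the surface genes Ptprc, Cd7, Cd8a, Itgae and Il2rb, the cytoskeletal regulator Coro1a, and the effector genes Nkg7, Gzmb and Ccl5, with changes between -4.39 and -2.65. The other tested genes were Gzma at -2.99 (limma adjusted p = 0.0507) and Cd3e at -1.51 (limma adjusted p = 0.0810). Cd3d, Cd7 and Il2rb were above 5 on 0 deficient arrays, Nkg7 on 1, and Cd3g, Cd8a and Cd3e on 2. These passed the filter through the control arrays, so the filter favoured a lower deficient mean in them. Relative to the control mean of each gene, the T cell markers with a mean over 5 averaged -4.03, -3.28 and -2.55 in deficient arrays. In control arrays they averaged 0.09, -0.03 and -0.06. Cd247, Cd8b1 and Cd2 were never above 5. Of 22 macrophage and dendritic cell markers 20 were on the array, 11 were tested and 4 were called lower. They were Adgre1, a macrophage marker, at -1.96, Itgax, a dendritic cell marker, at -1.81, and the adaptor genes Tyrobp at -2.95 and Fcer1g at -2.45, which natural killer and some T cells also use. Itgax was above 5 on 0 deficient arrays, so it passed the filter through the control arrays. The complement genes C1qb and C1qa had values of -1.07 and -0.88 (limma adjusted p of 0.197 and 0.328). Aif1 was at -0.86 without overlap. Csf1r at -0.64, Lyz2 at -0.41, Cd14 at -0.31 and Mertk at -0.12 each overlapped between the groups. These further tested genes had limma adjusted p between 0.356 and 0.848. Genes of this list with a mean over 5 averaged -1.14, -0.92 and -1.61 in deficient arrays and 0.30, -0.17 and -0.12 in control arrays, and 9 of its genes, including the dendritic cell genes Flt3, Zbtb46, Xcr1, Batf3 and Cd209a, were never above 5. Of 11 B cell and plasma cell markers 10 were on the array, 3 were tested and 0 were called. They differed in direction, with Jchain, the plasma cell joining chain, at -1.62 (limma adjusted p = 0.192) and Blnk, a B cell adaptor, at +1.31 (limma adjusted p = 0.197), both without overlap, and Sdc1 at +0.13. Ms4a1 passed 5 on 1 array and was not tested, and Cd79a, Cd79b, Pax5, Cd22, Blk and Mzb1 were never above 5. Of 9 stromal and endothelial markers, all on the array, 4 were tested and 0 were called. Lower without overlap were 5 of the 9, compared with 11.4% of all genes on the array. Those 5 include Col1a1 and Cdh5, which were never above 5. Of the tested genes, Vim changed by -1.07 (limma adjusted p = 0.144) and Col1a2 by -1.69 (limma adjusted p = 0.164). Col3a1 changed by -1.74 (limma adjusted p = 0.232). Acta2 overlapped between the groups, at +0.06 (limma adjusted p = 0.856). The endothelial genes Pecam1 and Kdr were also never above 5. Stromal genes with a mean over 5 averaged -1.55, -1.17 and -0.61 in deficient arrays and 0.58, -0.26 and -0.32 in control arrays. The part of these cells in the class I, class II and loading values was not tested. All 13 epithelial markers were tested and 0 were called, with means of 0.40, 0.15 and 0.06 in deficient arrays and 0.10, -0.09 and -0.01 in control arrays. The 2 with the smallest p were the keratin genes Krt18 at +0.95 and Krt19 at +0.69 (limma adjusted p of 0.230 and 0.283).

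**Figure D5:**
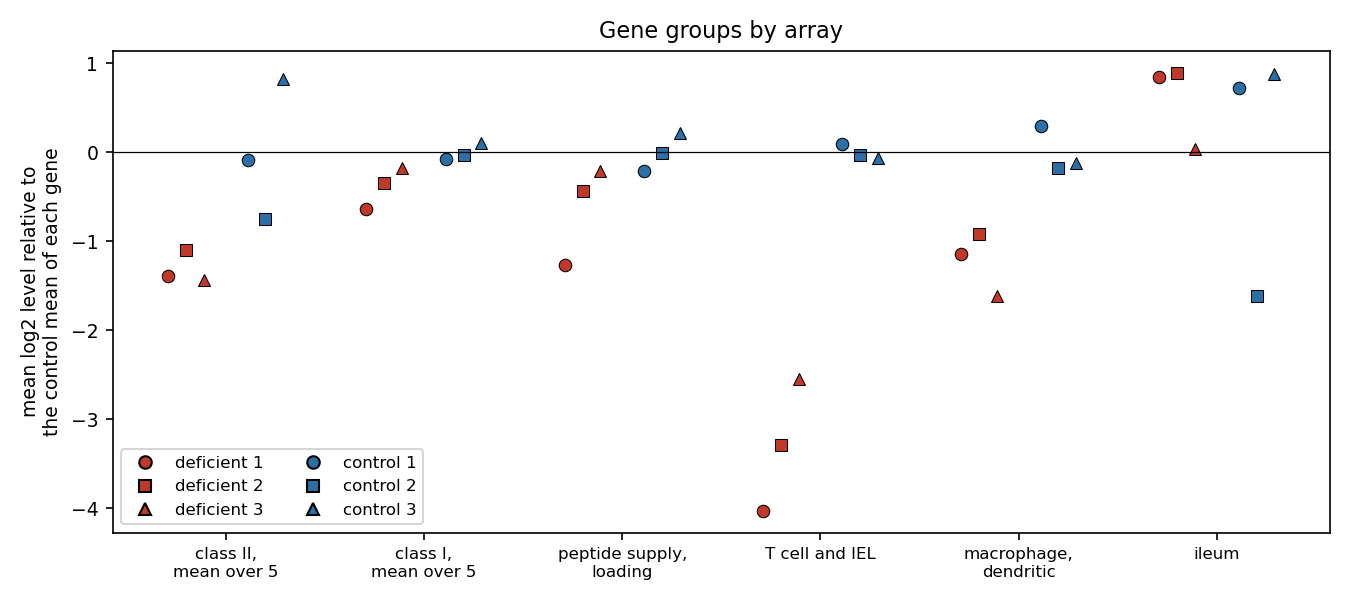
Mean log2 level of each gene group by array relative to the control mean of each gene (vertical axis), for deficient (red) and control (blue) mice, over genes with a mean over 5. Class II is lowest in deficient replicates 1 and 3 and highest in control replicate 3, supply and loading is lowest in deficient replicate 1 at -1.27, T cell markers lie between -4.03 and -2.55 in deficient mice, and the ileum markers are lowest in control replicate 2 at -1.61.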

How the data were processed

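Total RNA of intestinal epithelial cell preparations from 6 mice was hybridised to Affymetrix arrays. The authors deposited 1 log2 expression value per probe set and array, a scale read here off the range of 0.42 to 16.4. Partek 6.5 and GCRMA, a normalization that uses probe sequence, appear in the submitters' processing notes with no role. After GCRMA, probe sets without signal lie close together at low values, and changes there depend on its background model. The number of arrays limits the precision, and no scanner intensities were analysed here.

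Of 45101 probe sets, 64 controls were left out, and the platform annotation gave 1 symbol for 34945, several for 932 and none for 9160. Entrez IDs of 34741 matched RefSeq, which changed 0 symbols. Each of 18193 genes was represented by its probe set with the highest mean over the 6 arrays. The 8893 genes above 5 on at least 3 arrays were fitted by limma 3.58.1 (R 4.3.3, lmFit and eBayes without covariates). Genes with a Benjamini-Hochberg adjusted p under 0.05 were called. The procedure was also run on simulated data drawn without effects shared by the genes of an array. No result here rests on that run. Group means carry the SD over 3 mice, and changes carry the standard error of the fit. With 3 arrays against 3, an exact permutation test of 1 gene cannot go below p = 0.10, so none is given. The labels call the mice biological replicates.

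All tested members are named with their values, and members under the filter by their range. Other lists (150 entries in 12 lists, 143 on the array) are given by counts, called genes and up to 2 further genes with the smallest p. More genes are named in the macrophage and dendritic cell list, the B cell and plasma cell list and the stromal and endothelial list. The members and lists were chosen with earlier results of these data known. Alternatives were array weights, an intensity trend, robust fitting, other filters, a floor, quantile normalization, other choices of probe set, a replicate block and leaving out each array. Promoter windows came from a RefSeq table on GRCm38.p6 and were searched by exact letters. The platform annotation names no build, so no probe set coordinates are given.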

Additional observations from a re-analysis of the deposited data

How the results depend on the processing

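Of 438 results for the 25 tested members under an alternative, 423 kept their direction and side of the threshold, 6 gained a call and 9, in 5 genes, reversed. Since 0 members were called as reported, no call could be lost, and keeping the side of the threshold meant staying uncalled. As reported, limma called 186 genes (176 lower, 10 higher) and 0 members. Array weights called 293 genes (3.29% of those tested), 33 of them higher, and 3 members. The members were H2-Ab1 (-2.25, limma adjusted p 0.0477), H2-DMa (-2.61, 0.0321) and H2-Eb1 (-2.17, 0.0207). With these weights H2-D1 turned to -0.033. H2-K1 (-0.12), H2-Ea (+0.17), H2-Q10 (+0.67), H2-Q2 (-0.34), H2-Q5 (-0.94), Psmb10 (-0.31) and Psme1 (-0.027) moved by over 1.5 times. With no filter 85 genes were called, 85 lower and 0 higher, with 1 member, H2-DMb2. A filter at 7 called 99 genes, 90 lower. Raising values under 5 to 5 gave medians of 0.00 for class II and -0.10 for class I, by construction, since 5 genes of each class never pass 5. The mean of all probe sets of a gene called 117 genes (111 lower, 6 higher) with a class II median of -0.44, and turned H2-D1 to -0.041 and Tapbp to 0.067. Leaving out probe sets that can match several transcripts gave a class II median of -0.42 and turned H2-D1 to -0.37. Leaving out 1 array at a time gave 93 to 239 genes (88 to 203 lower, 3 to 36 higher), 0 to 2 members, and class I medians between -0.31 and -0.14. The lowest total came without control replicate 1, with 104 without control replicate 3 and 101 without deficient replicate 2. Across these, the log2 change ran between -0.029 and 0.266 for H2-D1 (negative without control replicate 2), between -0.092 and 0.074 for H2-K1 (positive without control replicate 3 or deficient replicate 3), between -0.265 and 0.058 for Psme1 and between -0.532 and 0.025 for Tap1 (both positive without deficient replicate 1), and between -0.247 and 0.027 for the shared H2-K1 and H2-D1 probe set (positive without control replicate 3). Same-numbered mice did not deviate together (correlations 0.05, -0.29 and 0.00), and the fit with the replicate number as a block called 141 genes, 132 lower, and 0 members. The H2-Q9 and H2-Q7 probe set, tested with alternatives chosen after seeing the data, lost its call with the block (adjusted p 0.0789) and with no filter (0.153), and kept it with array weights (0.0165), an intensity trend (0.0272) and a filter at 7 (0.0374). The class medians cover all members, so the planned filters were not run for them. Where no cause is named, the cause was not tested.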
